A study of Mus musculus with 16 samples.

Results

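Fbp2, Pfkfb1 and Pfkfb3 encode enzymes that act around fructose phosphate, the point at which a muscle fibre commits sugar to glycolysis or returns it towards glycogen. The 3 genes were the rows that carried these names in the deposited gene tables, 3 of 24354 rows in each table, and all 3 were among the genes the authors tested in both tables. They were picked with the FPKM values (fragment numbers scaled by transcript length and by library size) of these same libraries in view, so their levels over the groups are given as a description, with no test.

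Phosphofructokinase adds a phosphate to fructose phosphate and drives glycolysis, and fructose bisphosphatase removes it again. Fbp2 encodes the muscle form of the bisphosphatase and Fbp1 the form of liver and kidney. The PFKFB enzymes carry a kinase and a phosphatase on one protein, and with them they make and remove a regulatory fructose bisphosphate that switches phosphofructokinase on and holds the bisphosphatase back. Pfkfb1 is the form described in liver and skeletal muscle, Pfkfb2 in heart, Pfkfb3 is an inducible form with a strong kinase and a known target of hypoxia-inducible factor, and Pfkfb4 was first described in testis.

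The RNA came from the quadriceps of C57BL/6 males, 4 months old, all on normal chow. The 4 groups were wild type at rest, HDAC3-KO at rest, wild type after exercise and HDAC3-KO after exercise, with 3 libraries each. HDAC3 is a histone deacetylase of the NCoR and SMRT corepressor complexes. The labels named the altered line only as HDAC3-KO and gave neither a promoter nor a cell type for the deletion. Exercise meant running on a treadmill at 10 m/min in 3 bouts of 1 h, separated by 1 h of rest, and the muscle was collected 2 h after the last bout. No label said whether the libraries of a group came from separate animals, so the p-values below measure the spread between these samples, which may be technical.

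Hdac3 ranged from 23.7 to 33.3 FPKM in wild type and from 4.13 to 8.16 FPKM in knockout over both tables. FPKM summed to between 454359 and 522584 per library, and all 6 muscle markers, such as Ckm and Ryr1, were present. All 4 liver markers averaged below 1 FPKM. Wild-type library 2 at rest and knockout library 3 after exercise stood apart in the immune and neutrophil markers, whose sum was 521 and 377 FPKM there and between 31.2 and 65.9 FPKM in the other 10 libraries.

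The FPKM values still held the steps of whole sequenced fragments, which gave the relative depth of the libraries. Among genes with few fragments, between 32.3% and 38.3% of the values in each library stood in 1 fixed ratio to those of wild-type library 1 at rest. By these ratios the shallowest library, knockout library 1 at rest, had 0.66 times the depth of that library, and the deepest, wild-type library 2 after exercise, had 1.06 times. Depth here is the inverse of the FPKM worth of 1 fragment. It therefore also holds any other scaling applied to a library or a table, and is not a read total. Whole numbers of fragments came out for 66.7% of the 8854 genes tested in both tables, within 0.02 of a fragment in all 12 libraries, and for Fbp2 and Pfkfb1 among the 3 genes. Pfkfb3 gave no whole numbers, so its counting error was not determined. The fragment numbers are the smallest that fit, and the intervals made from them cover counting error only.

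The window before the start site is shown for Fbp2 and Pfkfb3, because these are the members whose levels separated the genotypes. Each stretch below is the 250 bases before an annotated start, 5′ to 3′ on the gene's strand, from RefSeq on GRCm38.p6. The expression tables were made on mm9 and carry no coordinates. Capitals mark CACGTG, a full E-box, or ACGTG, the core of a hypoxia response element, on either strand. Each CACGTG also holds ACGTG.
Fbp2, chr13:62858401-62858650, minus strand: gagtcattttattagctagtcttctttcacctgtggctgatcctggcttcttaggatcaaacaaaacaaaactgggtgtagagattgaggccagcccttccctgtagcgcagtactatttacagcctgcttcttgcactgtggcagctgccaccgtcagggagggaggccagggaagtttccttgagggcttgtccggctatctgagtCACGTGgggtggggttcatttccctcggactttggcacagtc
Pfkfb3 upstream start, chr2:11553930-11554179, minus strand: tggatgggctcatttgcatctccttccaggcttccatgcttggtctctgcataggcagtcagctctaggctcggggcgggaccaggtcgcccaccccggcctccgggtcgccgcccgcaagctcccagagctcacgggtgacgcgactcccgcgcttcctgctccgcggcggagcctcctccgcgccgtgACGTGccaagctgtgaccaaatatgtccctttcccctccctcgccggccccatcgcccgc
Pfkfb3 downstream start, chr2:11502091-11502340, minus strand: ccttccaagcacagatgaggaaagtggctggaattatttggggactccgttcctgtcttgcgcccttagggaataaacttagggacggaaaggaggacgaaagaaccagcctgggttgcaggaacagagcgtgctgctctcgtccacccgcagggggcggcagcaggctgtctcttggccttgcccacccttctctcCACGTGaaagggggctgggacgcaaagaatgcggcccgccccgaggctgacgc
The E-box began 42 bases before the Fbp2 start and 53 bases before the downstream Pfkfb3 start, and the upstream Pfkfb3 window held the ACGTG core alone, 60 bases before the start. Searched on both strands of the full windows of 300 bases, CACGTG was present in 7.15% of the 32851 windows in the table and ACGTG in 19.6%. None of the 4 annotated Pfkfb1 windows held either. Among the relatives described below, 1 of 3 Pfkfb2 windows held CACGTG, 22 bases before the start. Another Pfkfb2 window held the ACGTG core alone, 172 bases before the start, and the Pfkfb4 window held neither. AGGTCA, a core motif of many nuclear receptors, was found in none of the Fbp2 and Pfkfb3 windows, in 1 of the 4 Pfkfb1 windows and in 16.3% of all windows. The general E-box CANNTG, which includes every CACGTG, was in every window of the 3 genes and in 72.3% of all windows. A match is only a description of letters, and no binding was measured here.

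Fbp2, the muscle fructose bisphosphatase, was lower in every knockout library than in any wild-type library. At rest the wild-type libraries held 39.1, 28.7 and 25.2 FPKM, from 266, 162 and 175 fragments. The knockout libraries at rest held 14.0, 18.6 and 11.6 FPKM, from 63, 105 and 53 fragments. The highest resting knockout library therefore lay below the lowest resting wild-type library. The exercised wild-type libraries had 40.1, 37.4 and 37.6 FPKM, from 197, 270 and 184 fragments. The exercised knockout libraries had 15.2, 17.6 and 14.4 FPKM, from 93, 85 and 80 fragments. Here too the groups were apart.

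The group means of Fbp2 were 31.0 ± 7.24 FPKM for wild type against 14.7 ± 3.55 FPKM for knockout at rest (SD, n = 3), a 2.11-fold lower mean. After exercise they were 38.4 ± 1.505 and 15.7 ± 1.67 FPKM (SD, n = 3), a 2.44-fold lower mean. On a log2 scale with 1 FPKM added to each value, written log2(FPKM + 1), which shrinks the change of scarce genes, the difference knockout minus wild type was -1.03 at rest (pooled SD 0.32) and -1.24 after exercise (pooled SD 0.11). In bulk muscle, fewer cells that carry a transcript and less of it per cell cannot be told apart. The wild-type libraries after exercise varied by 3.92% around their mean, no more than the 6.09% to 7.37% expected from counting fragments. The resting wild-type libraries varied by 23.4%, beyond their counting error of 6.13% to 7.86%, with library 1 as the high one.

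The related liver gene Fbp1 was nearly silent, so the bisphosphatase signal in this muscle belonged to the Fbp2 row. Fbp1 had 4 fragments over all 12 libraries and at most 2 in any library, against 1733 fragments for Fbp2. Its highest value was 0.279 FPKM, in knockout library 1 after exercise, where the sum of the liver markers was also highest, at 9.64 FPKM. The RefSeq gene table lists Fbp1 among the older names of Fbp2 and Fbp2 among those of Fbp1, and both lie on chromosome 13. The row read here as Fbp2 is the one that was present in muscle.

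**Figure D1:**
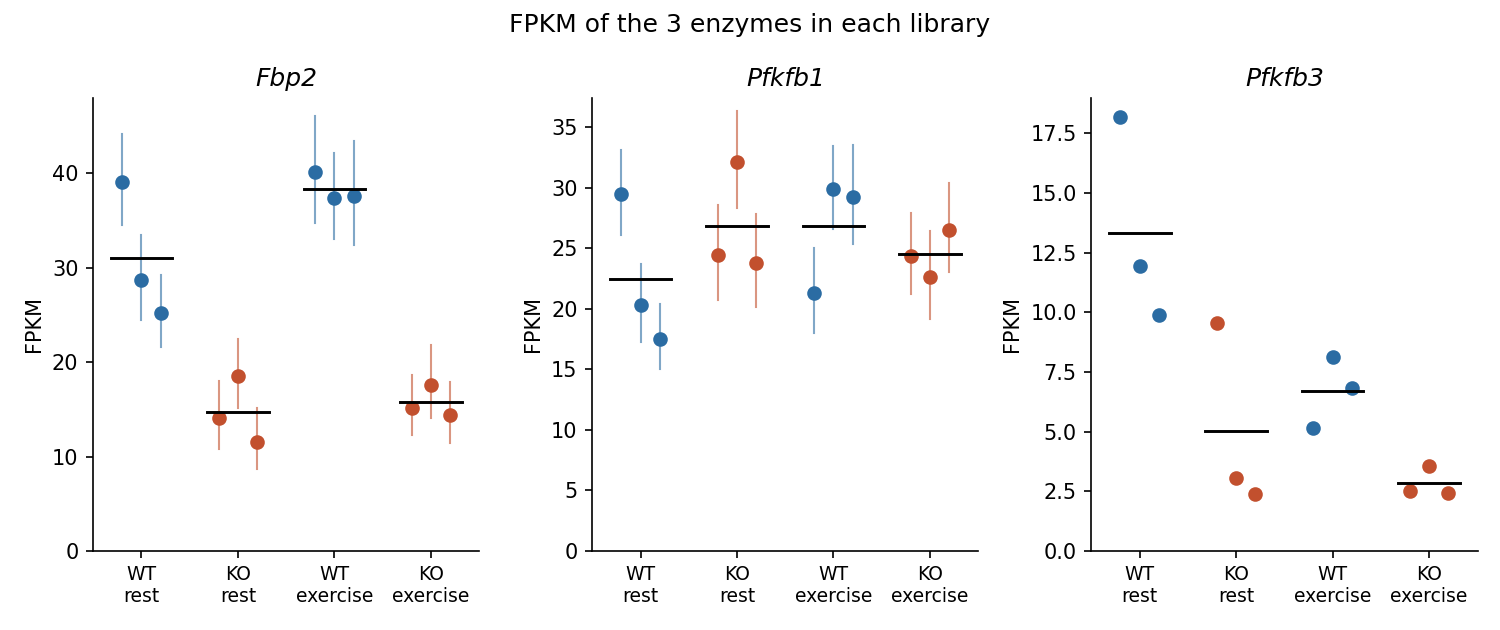
FPKM (y axis, from 0) of Fbp2, Pfkfb1 and Pfkfb3 in the wild-type (WT) and knockout (KO) libraries at rest and after exercise; points are libraries 1 to 3 from left to right, black lines are group means and thin lines are exact 95% Poisson intervals, drawn where whole fragments were recovered. Fbp2 lies at 25.2 FPKM or more in wild type and at 18.6 FPKM or less in knockout, the Pfkfb1 groups overlap, and Pfkfb3 is highest in wild type at rest.

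Pfkfb1, a member of the family described in liver and muscle, did not separate the groups. At rest it measured 29.5, 20.3 and 17.5 FPKM in wild-type muscle and 24.4, 32.2 and 23.8 FPKM in the knockout. After exercise it measured 21.3, 29.9 and 29.2 FPKM in wild-type muscle and 24.4, 22.6 and 26.5 FPKM in the knockout. The ranges of all 4 groups overlapped, and the lowest and highest of the 12 values, in wild-type library 3 and knockout library 2, were both at rest.

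The Pfkfb1 means were 22.4 ± 6.25 FPKM for wild type against 26.8 ± 4.66 FPKM for knockout at rest, and 26.8 ± 4.77 and 24.5 ± 1.97 FPKM after exercise (SD, n = 3 each). The knockout minus wild-type difference was 0.27 at rest (pooled SD 0.31) and -0.11 after exercise (pooled SD 0.20) on the log2(FPKM + 1) scale. Each difference was smaller than the spread between libraries. Between 148 and 305 fragments stood behind each library, so counting error was 5.73% to 8.22% of a value. The exact 95% Poisson interval ran from 15.02 to 20.4 FPKM in wild-type library 3 at rest and from 26.1 to 33.1 FPKM in wild-type library 1 at rest, so these libraries of 1 group differed beyond counting error.

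Pfkfb3, the inducible member with the strong kinase, was the member whose level varied most. In wild type at rest the libraries held 18.2, 11.95 and 9.88 FPKM. The knockout libraries at rest held 9.55, 3.07 and 2.40 FPKM. The genotypes did not overlap at rest, but knockout library 1 came close to wild-type library 3. The exercised wild-type libraries had 5.13, 8.12 and 6.81 FPKM. The exercised knockout libraries had 2.50, 3.58 and 2.41 FPKM. All of these lay below the lowest wild-type library of the same condition.

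The Pfkfb3 means at rest were 13.3 ± 4.33 FPKM for wild type against 5.01 ± 3.95 FPKM for knockout (SD, n = 3), a 2.67-fold lower mean. After exercise they were 6.69 ± 1.497 and 2.83 ± 0.649 FPKM (SD, n = 3), a 2.36-fold lower mean. The log2(FPKM + 1) difference was -1.40 at rest (pooled SD 0.69) and -0.9995 after exercise (pooled SD 0.26). Without knockout library 1 the resting difference was -1.91. That library also held the highest sum of adipocyte markers among the resting knockouts, 33.4 FPKM against 11.3 and 8.61 FPKM. Its sum of immune markers was the highest too, 62.3 FPKM against 32.6 and 43.7 FPKM. In the exercised knockouts the adipocyte sums were 11.2, 30.6 and 27.9 FPKM, beside Pfkfb3 at 2.50, 3.58 and 2.41 FPKM. The resting wild-type sums were 17.1, 32.5 and 23.4 FPKM, beside Pfkfb3 at 18.2, 11.95 and 9.88 FPKM. The exercised wild-type sums were 10.8, 27.4 and 33.6 FPKM, beside Pfkfb3 at 5.13, 8.12 and 6.81 FPKM. Of the 6 adipocyte markers, 4 averaged at least 1 FPKM and Plin1 and Lep did not. Their part in the Pfkfb3 level was not tested. The endothelial markers, of which all 6 were present, summed to between 69.3 and 75.1 FPKM in the resting knockouts. They were not highest in knockout library 1. Without the 2 libraries that stood apart in immune markers the members' differences moved by less than their pooled SD. Leaving out wild-type library 2 gave a resting difference of -1.46 for Pfkfb3, -1.07 for Fbp2 and 0.21 for Pfkfb1. Leaving out knockout library 3 gave a difference after exercise of -0.92 for Pfkfb3, -1.18 for Fbp2 and -0.17 for Pfkfb1.

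In the authors' deposited tables Fbp2 and Pfkfb3, 2 of the 3 genes, were called at a q at or under 0.05 at rest, where 10.8% of all tested genes were (5.9% higher and 4.94% lower in knockout). The same 2 were called after exercise, where 9.57% were (4.66% higher and 4.91% lower). Library ranges lay apart with the knockout lower for 12.4% of tested genes at rest and 13.7% after exercise, and for 5.84% of the genes tested in both tables they did so in both. The genes were chosen on these contrasts, so nothing is read from the counts.

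The levels at rest and after exercise come from separate tables, which may have been normalized separately, so they are set side by side without a test. Over the genes tested in both tables the median log2(FPKM + 1) difference between exercise and rest was 0.00 in wild type and -0.03 in knockout. Pfkfb3 in wild type was 2.00-fold lower after running, from 13.3 to 6.69 FPKM, and every running library lay below every resting one. Such a separation downward was seen for 8.19% of genes in wild type. In knockout its mean went from 5.01 to 2.83 FPKM with overlapping ranges. This difference rested on knockout library 1 at rest, since it was -0.47 on the log2(FPKM + 1) scale with that library and 0.03 without it.

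Fbp2 and Pfkfb1 did not separate rest from exercise in either genotype. For Fbp2 the exercise minus rest difference was 0.32 in wild type (pooled SD 0.23) and 0.11 in knockout (pooled SD 0.25). The overlap in wild type rested on wild-type library 1 at rest, without which the difference was 0.50. With 1 library left out the wild-type difference lay between 0.19 and 0.50. The Pfkfb1 difference was 0.26 in wild type (pooled SD 0.32) and -0.11 in knockout (pooled SD 0.18). In order of their means the Fbp2 groups ran from wild type after exercise through wild type at rest and knockout after exercise to knockout at rest. Neighbours of 1 genotype overlapped, and the gap lay between the genotypes. The Pfkfb3 groups ran from wild type at rest through wild type after exercise and knockout at rest to knockout after exercise. The gap lay after the first of these and rested on knockout library 1 at rest. It was narrow, from 9.88 FPKM in wild-type library 3 at rest to 9.55 FPKM in that knockout library. The other resting knockout libraries, at 3.07 and 2.40 FPKM, lay below every wild-type library of either condition, the lowest at 5.13 FPKM.

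Of the other PFKFB genes, Pfkfb4 rose in the knockout in both conditions, opposite to Pfkfb3. In this and the next paragraphs the words rose and fell are kept for genes that passed both the authors' q at or under 0.05 and a limma test on log2(FPKM + 1) of the libraries, Benjamini-Hochberg adjusted over all tested genes. The share of genes that did so upward was 2.74% at rest and 1.39% after exercise, and downward 1.53% and 2.04%. limma alone called 4.72% and 3.73% of genes. At an unadjusted limma p under 0.05, a count given below beside the lists, 21.5% of all tested genes passed at rest and 19.9% after exercise. At rest Pfkfb4 held 19.4, 17.6 and 19.5 FPKM in wild-type muscle and 36.6, 48.95 and 34.8 FPKM in the knockout. Every knockout library was above every wild-type library, as for 15.6% of genes, and the mean rose from 18.9 ± 1.08 to 40.1 ± 7.695 FPKM. The log2 difference was 1.04 (SE 0.14, limma adjusted p = 0.0154). After exercise it held 31.4, 28.3 and 33.0 FPKM in wild-type muscle and 53.8, 42.5 and 60.2 FPKM in the knockout. The groups were again apart, as upward for 12.4% of genes, and the mean rose from 30.9 ± 2.40 to 52.2 ± 8.95 FPKM. The log2 difference was 0.73 (SE 0.15, limma adjusted p = 0.0402). At rest the call was lost without wild-type library 2 (limma adjusted p = 0.0754) and with no filter on low values (0.0944). After exercise it was kept in 1 of 6 fits with a library left out, the one without knockout library 2. The limma adjusted p after exercise was 0.0983, 0.133 and 0.0925 without wild-type libraries 1, 2 and 3, and 0.103 and 0.0963 without knockout libraries 1 and 3. With no filter it was 0.206.

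Pfkfb4 also differed between the tables, again with no test across them. In wild type its mean was 1.64-fold higher after running and the ranges lay apart, as they did upward for 7.54% of genes. In knockout the mean was 1.30-fold higher with overlapping ranges. Between 290 and 974 fragments per library stood behind Pfkfb4, more than behind Pfkfb1 in each library. Pfkfb2, like Pfkfb3, gave no whole numbers.

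Pfkfb2, the heart form, did not pass both tests in either condition. At rest it measured 9.52, 11.35 and 12.8 FPKM in wild-type muscle and 20.5, 7.98 and 15.98 FPKM in the knockout, with overlapping groups (limma adjusted p = 0.632). After exercise it measured 13.8, 7.83 and 14.7 FPKM in wild-type muscle and 24.85, 20.3 and 15.04 FPKM in the knockout. These groups did not overlap, and the authors' deposited table gave q = 0.0114. However, limma did not pass Pfkfb2 (log2 difference 0.70, SE 0.25, limma adjusted p = 0.181).

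The mix of PFKFB transcripts therefore differed from group to group. FPKM are scaled by transcript length, so the 4 genes can be added and compared. In wild type at rest the sum was 65.9 ± 9.33 FPKM, of which Pfkfb1 made up 33.7% ± 4.58, Pfkfb4 28.9% ± 3.65, Pfkfb3 19.9% ± 3.63 and Pfkfb2 17.5% ± 4.62 (SD, n = 3). In knockout at rest the sum was 86.8 ± 8.47 FPKM, with Pfkfb4 at 46.2% ± 6.51 and Pfkfb3 at 5.64% ± 4.19. After exercise Pfkfb3 made up 8.75% ± 1.97 in wild type and 2.90% ± 0.969 in knockout. The Pfkfb4 share after exercise was 40.5% ± 2.95 in wild type and 52.2% ± 5.11 in knockout. Pfkfb3 had the smallest mean share in 3 of the groups. Its share overlapped that of Pfkfb2 in every group but the exercised knockouts. Members entered this mix, so the shares are a description too.

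**Figure D2:**
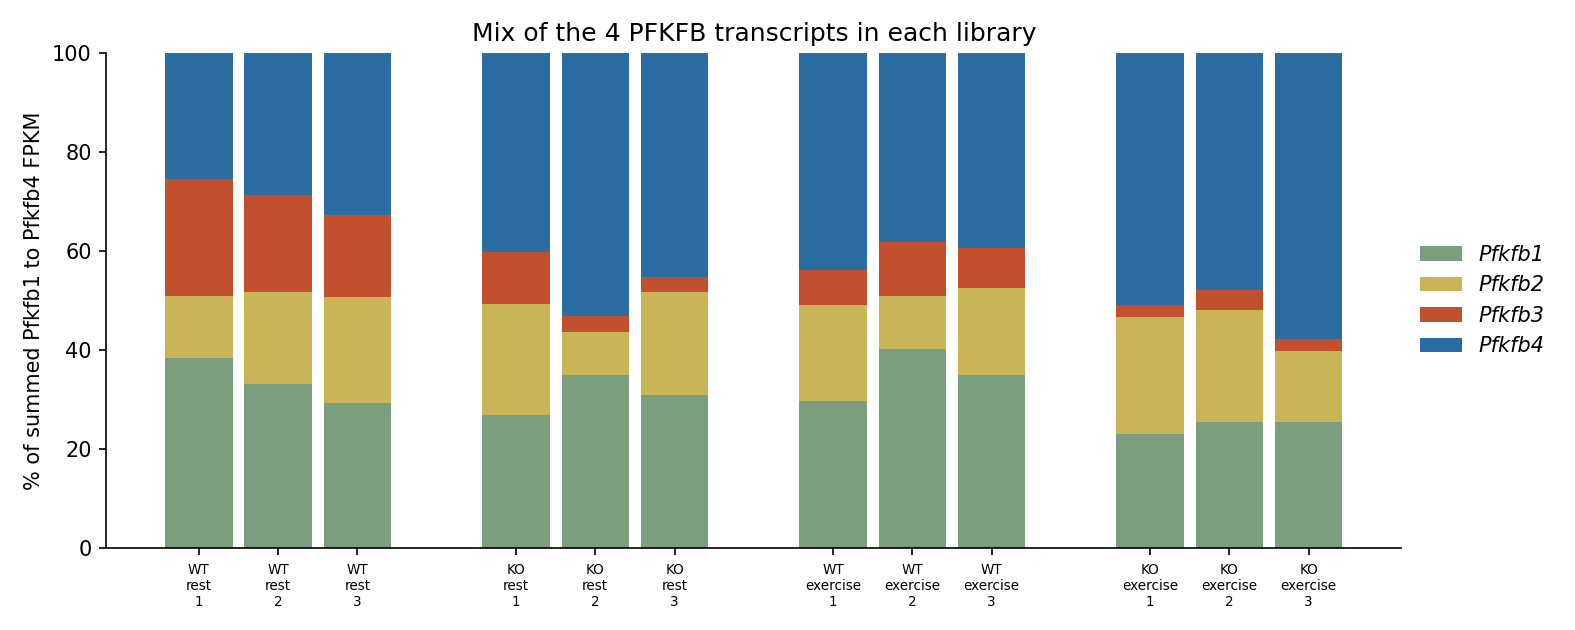
Share of each gene in the summed FPKM of Pfkfb1, Pfkfb2, Pfkfb3 and Pfkfb4 (y axis, percent), one bar for each of the 12 libraries, grouped by genotype (WT, KO) and condition. Pfkfb3 takes 16.5% to 23.7% in the wild-type resting libraries and 2.31% to 4.02% in the knockout libraries after exercise, while Pfkfb4 takes the largest share in every knockout library.

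The ratio of Pfkfb4 to Pfkfb3 FPKM restates the values above within each library, free of any scaling between libraries. It holds a member, so it is a description as well. It lay between 1.07 and 1.98 in wild type at rest and between 3.49 and 6.11 in wild type after exercise. In the knockout libraries it lay between 3.83 and 15.9 at rest and between 11.9 and 24.996 after exercise. The lowest of the resting knockouts was library 1, and it was the only one within the range of the exercised wild type.

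**Figure D3:**
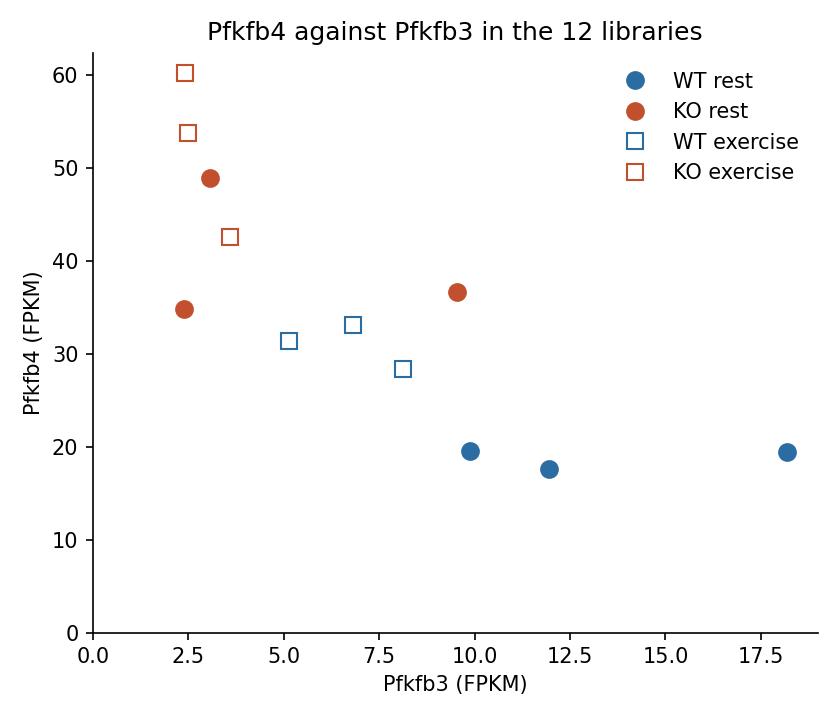
Pfkfb4 against Pfkfb3 (both FPKM, axes from 0) in the 12 libraries, blue for wild type (WT) and red for knockout (KO), filled circles at rest and open squares after exercise. The resting wild-type libraries lie lowest in Pfkfb4, between 17.6 and 19.5 FPKM, and the exercised knockout libraries, between 42.5 and 60.2 FPKM, overlap in Pfkfb4 with the resting knockouts, between 34.8 and 48.95 FPKM.

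Over the 12 libraries, centred on the mean of each table, Fbp2 and Pfkfb3 had a Pearson r of 0.81, and each ran against Pfkfb4 with an r of -0.83. Pfkfb1 had an r of 0.07 with Fbp2 and -0.05 with Pfkfb3. These points share libraries and groups. Centred on the mean of each group, which removes genotype and running, r was -0.30 for Pfkfb3 with Pfkfb4. For Fbp2 it was then 0.33 with Pfkfb3, 0.28 with Pfkfb4 and 0.64 with Pfkfb1.

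Apart from the 3 members, 9 genes of this list were in the tables, and 6 were tested at rest and 7 after exercise. In each condition 1 rose, Pfkfb4, and 0 fell. limma at an unadjusted p under 0.05 gave 1 higher and 0 lower at rest and 2 higher and 1 lower after exercise. The authors called 1 higher and 0 lower at rest, and 2 higher and 1 lower after exercise. The median log2 difference of the tested list genes was 0.09 at rest and 0.02 after exercise, where all tested genes had 0.01 and -0.00.

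The main muscle phosphofructokinase, Pfkm, which works against Fbp2, stood at 1181 ± 158 FPKM for wild type against 1144 ± 38.5 FPKM for knockout at rest (limma adjusted p = 0.895). After exercise it stood at 1207 ± 63.9 and 1097 ± 125 FPKM (limma adjusted p = 0.563). Its FPKM was 26.5 to 53.55 times that of Fbp2 in the resting wild-type libraries and 63.2 to 100.2 times in the resting knockouts. After exercise the ratio lay between 29.1 and 34.3 in wild type and between 55.1 and 84.65 in knockout. The liver and platelet phosphofructokinases were scarce. Pfkl measured 2.03 ± 0.624 against 1.09 ± 0.432 FPKM after exercise, and only the authors' deposited table called it (q = 0.0316, limma adjusted p = 0.237). Pfkp measured 2.09 ± 0.300 against 2.13 ± 0.728 FPKM at rest and 2.66 ± 0.804 against 2.30 ± 0.447 FPKM after exercise.

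Tigar, which removes the regulatory bisphosphate, measured 38.1 ± 0.924 against 33.4 ± 5.63 FPKM at rest (limma adjusted p = 0.437). After exercise it measured 28.9 ± 1.02 against 29.5 ± 3.08 FPKM (limma adjusted p = 0.933). The muscle aldolase Aldoa, which splits fructose bisphosphate, measured 8196 ± 1183 against 9279 ± 325 FPKM at rest and 8709 ± 595 against 9296 ± 1108 FPKM after exercise. Aldoc, the brain form, stayed below 0.5 FPKM in every library.

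**Figure D4:**
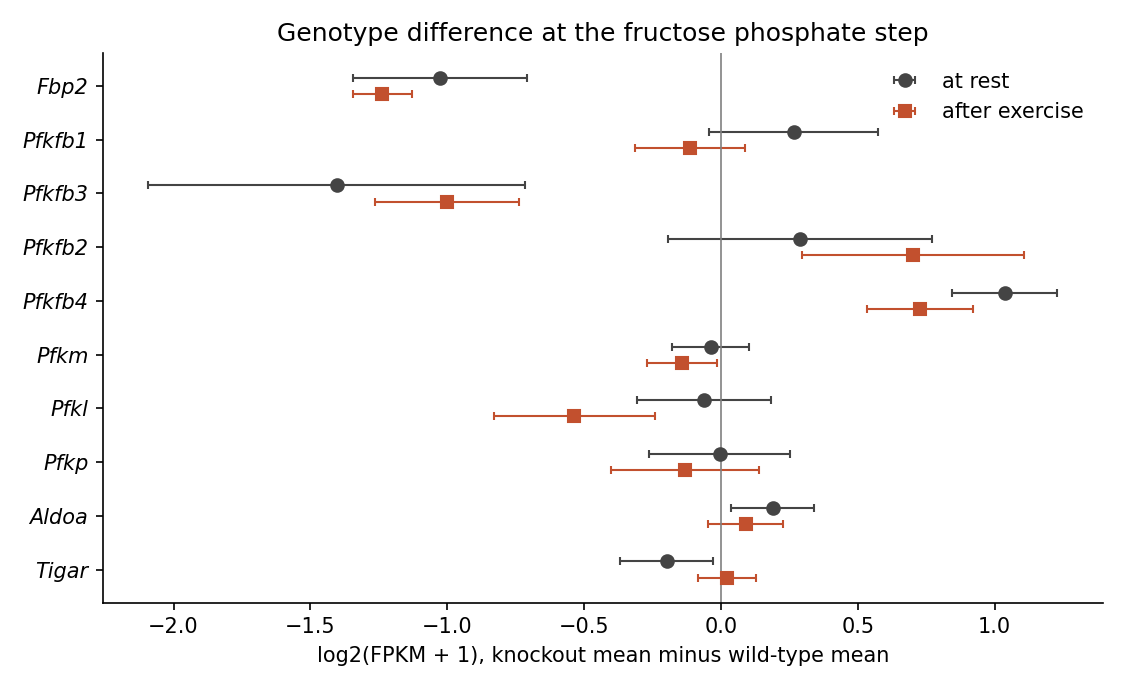
Knockout minus wild-type difference in mean log2(FPKM + 1) (x axis) for 10 genes of the fructose phosphate step, circles at rest and squares after exercise, with bars of 1 pooled SD of the 3 libraries of each genotype. Fbp2 and Pfkfb3 lie between -1.40 and -0.9995 in the 2 conditions, Pfkfb4 at 1.04 and 0.73, and Pfkm within 0.15 of 0.

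Over the 5 lists of fructose phosphate, glycolysis, gluconeogenesis, glycogen and hypoxia-responsive genes, without the members, 2 of 46 tested genes rose and 1 fell at rest. After exercise 1 of 48 rose and 2 fell. The shares called, 6.52% and 6.25%, stood beside 4.27% and 3.43% of all tested genes. At an unadjusted limma p under 0.05, 14 of the 46 and 13 of the 48 passed.

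In the rest of glycolysis 0 of 12 tested genes rose and 0 fell in either condition. limma at an unadjusted p under 0.05 gave 3 higher and 0 lower at rest, and 1 higher and 0 lower after exercise. The authors called 2 higher and 0 lower at rest, and 1 higher and 0 lower after exercise. The median log2 difference of the list was 0.15 at rest and 0.09 after exercise. The abundant enolase Eno3 measured 3548 ± 157 against 3859 ± 406 FPKM at rest and 4234 ± 384 against 3481 ± 636 FPKM after exercise. Gapdh measured 2436 ± 258 against 2651 ± 133 FPKM at rest and 2725 ± 337 against 2905 ± 337 FPKM after exercise.

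Of the other gluconeogenic enzymes 0 of 7 rose and 0 fell at rest, with 1 higher and 1 lower at an unadjusted limma p under 0.05 and 1 and 1 called by the authors. After exercise 0 rose and 1 fell, with 1 higher and 1 lower at an unadjusted limma p under 0.05. This was Slc37a4, the glucose phosphate transporter of the endoplasmic reticulum, which fell from 53.9 ± 0.635 to 31.2 ± 5.38 FPKM (limma adjusted p = 0.0308). It missed the threshold in all 6 fits with a library left out, with limma adjusted p between 0.0504 and 0.103, and with no filter on low values (0.153). At rest Slc37a4 measured 67.8 ± 6.79 against 38.7 ± 11.1 FPKM with groups apart, a log2 difference of -0.83 against -0.79 after exercise. The authors' deposited table called it at rest (q = 0.00119) and limma did not (limma adjusted p = 0.0581). The list's median log2 difference was 0.22 at rest and -0.06 after exercise. Mdh1 measured 474 ± 84.8 against 547 ± 46.8 FPKM at rest and 524 ± 37.8 against 502 ± 42.9 FPKM after exercise. Gpd1 measured 166 ± 19.98 against 147 ± 43.4 FPKM at rest and 183 ± 22.3 against 148 ± 33.3 FPKM after exercise.

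In glycogen metabolism 1 of 10 rose and 0 fell at rest, where limma at an unadjusted p under 0.05 gave 3 higher and 0 lower and the authors called 2 higher and 0 lower. After exercise 0 rose and 0 fell, where limma at an unadjusted p under 0.05 gave 2 higher and 2 lower and the authors called 0. The branching enzyme Gbe1 rose at rest from 54.7 ± 5.62 to 97.1 ± 18.4 FPKM (limma adjusted p = 0.0357). It passed in 1 of 6 fits with a library left out, the one without knockout library 2, and had limma adjusted p between 0.0633 and 0.125 in the others and 0.193 with no filter on low values. After exercise it measured 70.2 ± 11.5 against 91.1 ± 14.4 FPKM (limma adjusted p = 0.25). The median log2 difference here was 0.20 at rest and 0.00 after exercise. The phosphorylase Pygm measured 1868 ± 205 against 2136 ± 240.1 FPKM at rest and 2028 ± 85.5 against 2040 ± 276 FPKM after exercise. Ugp2 measured 591 ± 64.2 against 698 ± 188 FPKM at rest and 629.996 ± 122 against 630.4 ± 129.6 FPKM after exercise.

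Of the hypoxia-responsive genes, the class to which Pfkfb3 is known to belong, 0 of 11 rose and 1 fell at rest, and 0 of 12 rose and 1 fell after exercise. limma at an unadjusted p under 0.05 gave 4 higher and 1 lower at rest, and 2 higher and 1 lower after exercise, and the authors called 2 higher and 1 lower in each. Pdk1, one of the kinases that hold back pyruvate dehydrogenase, fell from 24.7 ± 1.07 to 15.8 ± 0.283 FPKM at rest (limma adjusted p = 0.0168) and from 22.3 ± 1.37 to 12.9 ± 1.07 FPKM after exercise (limma adjusted p = 0.0212). The call was lost in 4 of 6 fits with a library left out at rest and in 4 of 6 after exercise. At rest these were the fits without wild-type library 2 (limma adjusted p = 0.0754) and without knockout libraries 1, 2 and 3 (0.0598, 0.0509 and 0.0716). After exercise they were those without wild-type libraries 2 and 3 (limma adjusted p = 0.0792 and 0.0684) and knockout libraries 1 and 2 (0.0584 and 0.0693), and with no filter it was 0.0705. The list's median log2 difference was 0.32 at rest and 0.25 after exercise. Bnip3 measured 186 ± 31.5 against 247 ± 15.4 FPKM at rest and 217 ± 24.2 against 189 ± 15.5 FPKM after exercise, with opposite signs. Vegfa measured 73.6 ± 21.3 against 93.7 ± 30.5 FPKM at rest and 67.1 ± 12.1 against 102 ± 14.4 FPKM after exercise. The exercised Vegfa groups lay apart with the knockout higher, as for 12.4% of genes. The authors' deposited table called this (q = 0.014) and limma did not (limma adjusted p = 0.0911).

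Fibre type markers are given beside the members because glycolytic enzymes differ between fibres. Of 10 fast fibre genes 0 rose and 0 fell at rest, where limma at an unadjusted p under 0.05 gave 0 higher and 1 lower and the authors called 1 lower. After exercise 0 rose and 1 fell, with 0 higher and 4 lower at an unadjusted limma p under 0.05 and 0 higher and 1 lower called by the authors. The fast myosin light chain Myl1 fell after exercise from 15311 ± 580.4 to 7903 ± 547 FPKM (limma adjusted p = 0.0113), and measured 12893 ± 1509 against 8242 ± 950.0 FPKM at rest (limma adjusted p = 0.05635). The Myl1 call was lost without wild-type library 3 (limma adjusted p = 0.0556) or knockout library 2 (0.0544), and with no filter on low values. The fast gene Tnnt3 measured 16794 ± 1493 against 17176 ± 671 FPKM at rest and 19199 ± 446 against 15465 ± 736 FPKM after exercise. Mylpf measured 11538 ± 2400 against 10931 ± 1223 FPKM at rest and 13430 ± 539 against 10331 ± 476 FPKM after exercise. For both the genotypes overlapped at rest and lay apart after exercise, and neither gene passed either test. The median log2 difference of the fast list was 0.01 at rest and -0.14 after exercise. The fast markers summed to between 94958 and 100558 FPKM in wild type and between 78149 and 82213 FPKM in knockout after exercise, apart like the Fbp2 values, and overlapped at rest. Their part in the Fbp2 level was not tested. Of 9 tested slow and oxidative fibre genes 0 rose and 0 fell in either condition, with 1 higher at rest and 1 lower after exercise at an unadjusted limma p under 0.05. The authors called 2 of them higher at rest, and 1 higher and 1 lower after exercise. Their median log2 difference was 0.46 at rest and -0.19 after exercise. The slow and oxidative markers summed to between 3591 and 3766 FPKM in wild type and between 4274 and 7115 FPKM in knockout at rest. These sums lay apart with the knockout higher, and they overlapped after exercise. The part of these markers in the levels of the members was not tested.

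The genes whose pattern was most like each member were ranked by Pearson r over the 12 libraries, centred on each table's mean, among 8442 named genes tested in both tables. For Fbp2 the first 5 were Sema3c, Myl1, Ociad2, Zfp367 and Prkx, with r between 0.969 and 0.975. Each had the lower mean in the knockout, a direction largely set by ranking on likeness to Fbp2, so nothing is read from it. Sema3c measured 22.3 ± 2.85 against 14.4 ± 2.29 FPKM at rest. Ociad2 measured 19.9 ± 6.37 against 4.45 ± 0.204 FPKM after exercise. For Pfkfb3 they were Stbd1, Upf3a, Dstn, Cyfip1 and Rap1b, with r between 0.908 and 0.932. Stbd1, which binds glycogen, measured 22.4 ± 3.86 against 5.75 ± 5.38 FPKM at rest and 25.05 ± 7.09 against 6.79 ± 0.906 FPKM after exercise. Its direction too is largely set by the ranking. For Pfkfb1 they were Lrp6, Anapc16, Pir, Zfp715 and Uba6, with lower values of r, between 0.81 and 0.835. The libraries share genotype and table, and Spearman ranks kept 1, 1 and 3 of the 5 genes for Fbp2, Pfkfb3 and Pfkfb1.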

How the data were processed

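The authors deposited 2 gene tables, 1 for rest and 1 for exercise, with FPKM per library, group means and the p-values and q-values of their own comparison of the genotypes, per the file headers. The condition of each table was taken from its name. TopHat2, Bowtie, Cuffdiff and HOMER on mm9 are named in the submitters' processing notes; versions, annotation, strand and filters are not given in the sources used here. The 4 GRO-seq libraries were not analysed here. Genes whose deposited p was below 1 counted as tested, 9204 at rest and 9051 after exercise. Names turned into dates marked 27 rows after exercise, 14 of them tested; these were left out, which left 9037.

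Per table, limma 3.58.1 (R 4.3.3, trended variance prior, two-sided) was fitted on log2(FPKM + 1) and adjusted by Benjamini-Hochberg over all tested genes. The fit was also run on simulated data with independent normal noise and no outlying library. Such data cannot show how the calls depend on single libraries, so nothing is read from them. Library depths were compared through low FPKM values that differ by whole fragments. An exact permutation test of 3 against 3 cannot reach the threshold and was not used.

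The members and lists were chosen with earlier results of these data known. Some list genes are not reported here and were left out of the list counts. Named genes were Hdac3, the members, the fructose phosphate list, up to 4 called genes of lowest q per other list (or the 2 of highest FPKM where under 2 were called), and the 5 genes of highest r with each member. The alternatives changed the pseudocount, filter, scaling, block, fit and libraries.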

Additional observations from a re-analysis of the deposited data

How the results depend on the processing

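The level differences of Fbp2, Pfkfb1 and Pfkfb3 moved by less than the pooled SD in all 96 alternatives run (pseudocount 0.1, rescaling by median ratio, 1 library left out). Differences smaller than that SD could still change sign. In knockout, exercise minus rest went from -0.47 to 0.03 for Pfkfb3 without resting library 1. It went from 0.11 to -0.04 for Fbp2 without resting library 3, and from -0.11 to 0.02 for Pfkfb1 without resting library 2. The counts over all genes depended on the fit. The limma count was 434 at rest and 337 after exercise. It was 98 and 53 with no filter on low values, 678 and 592 in 1 fit over all 12 libraries, and between 20 and 292 at rest and between 70 and 103 after exercise with 1 library left out. The lowest came without wild-type library 2 at rest and without knockout library 2 after exercise, and only the fit without wild-type library 3 at rest stayed within 1.5 times. Of the pathway genes without the members, 3 were called at rest and 3 after exercise. With no filter it was 1 and 0 (10 and 10 at an unadjusted limma p under 0.05), and the fit over 12 libraries gave 6 at rest. With 1 library left out it was between 0 and 3 at rest (0 without wild-type library 2, with 9 at an unadjusted limma p under 0.05) and between 0 and 1 after exercise (0 without wild-type library 2 or 3 or knockout library 1, with 9, 12 and 8 at an unadjusted limma p under 0.05). The cause was not tested. The replicate numbers did not pair the genotypes: deviations of same-numbered libraries correlated between -0.00 and 0.05 at rest and between -0.33 and 0.03 after exercise. With the replicate block limma called 52 genes at rest and 170 after exercise, and 0 and 1 of the pathway genes (14 and 13 at an unadjusted limma p under 0.05). Block adjusted p was 0.0579 at rest and 0.0528 after exercise for Pfkfb4, 0.0621 and 0.048 for Pdk1, 0.0828 at rest for Gbe1, and 0.0515 for Slc37a4 and 0.0499 for Myl1 after exercise. Of the 5 genes most like each member, no centring kept 2 for Fbp2, 2 for Pfkfb1 and 0 for Pfkfb3, and centring on group means kept 0, 0 and 1. The number of libraries, 3 per group, limits every comparison.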

Other observations

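Pfkfb3 and the glycogen-binding Stbd1, the gene closest to it, had unlike courses between the tables. Stbd1 in wild type measured 22.4 ± 3.86 FPKM at rest and 25.05 ± 7.09 FPKM after exercise, while Pfkfb3 measured 13.3 ± 4.33 and 6.69 ± 1.497 FPKM. Without centring on each table its r with Pfkfb3 was 0.78 in place of 0.93.

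Tigar in wild type differed between the tables with little spread. It measured 37.6, 37.6 and 39.2 FPKM at rest and 28.2, 28.6 and 30.1 FPKM after exercise, ranges that lay apart, and in knockout its ranges overlapped. The difference between the genotypes in this respect was not tested.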
